A study of Danio rerio with 16 samples.

Results

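The genes described here carry metabolites into and around the tricarboxylic acid (TCA) cycle or handle fatty acids on their way to being oxidised. They were measured by RNA sequencing in skeletal muscle of adult zebrafish. They were taken by symbol, case ignored, as every gene whose symbol starts with or equals 1 of a set of names (the pyruvate dehydrogenase subunits and kinases, the TCA cycle enzymes, the carnitine palmitoyltransferases, the beta-oxidation enzymes, the electron transfer flavoproteins, the acyl-CoA synthetases, fabp, lpl, adipoq, plin, ppara and ppargc1). The rule used no measured value, though it was chosen with earlier results of these data known. It found 97 of the 32520 genes in the table. Of these, 83 had counts high enough to be tested. The other 14 had between 0 and 114 counts over all 16 libraries together, and 3 of them had 0 counts in every library.

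The 16 libraries held muscle RNA of 1 fish each, in 4 groups of 4 fish. Injured mutants carried the bns502 allele of ankrd1a, a CRISPR/Cas9 allele, and were sampled around the lesion 5 days after their dorsal tail muscle was stabbed with a needle. Injured wild type fish of the strain AB (Oregon) were stabbed and sampled likewise, and non-injured mutants and non-injured wild type fish gave the same region without a stab. All were adults with no age given, and the sources used here do not say which change bns502 makes in ankrd1a, nor whether transcript is lost. Ankrd1 encodes an ankyrin repeat protein of the sarcomere that is known as a stress-induced gene in mammalian muscle, and the series asks which genes lie downstream of ankrd1a in muscle repair.

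In the mitochondrion, the pyruvate dehydrogenase complex turns pyruvate into acetyl-CoA, and beta-oxidation cuts acetyl-CoA units from fatty acids that carnitine palmitoyltransferases have admitted. The TCA cycle oxidises acetyl-CoA and passes electrons to the respiratory chain. In vertebrate muscle these pathways are most developed in slow and oxidative fibres, and in mammals the nuclear receptor PPAR-alpha and the coactivators PGC-1-alpha and PGC-1-beta raise the transcription of many of their genes.

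Each library held between 17324482 and 25231102 estimated counts. Mutant libraries held 17324482 to 19811573 and wild type libraries 18011139 to 25231102, so most mutant libraries were less deep. The part of depth in the genotype comparisons was not tested. The symbol of the targeted gene is shared by a pair of IDs that the symbol table does not tell apart. The first, ANKRD1 ENSDARG00000075263, had 90.0 to 148 CPM (counts scaled to a common library size) in injured mutants, 147 to 185 CPM in injured wild type fish, 1.09 to 1.44 CPM in non-injured mutants and 1.77 to 5.08 CPM in non-injured wild type fish. Its log2 fold change in mutant over wild type was -1.53 without injury (edgeR, adjusted p = 0.01) and -0.33 after injury (adjusted p = 0.55). The second, ANKRD1 ENSDARG00000076192, reached at most 1.73 CPM in any library. Transcript level alone therefore checks the genotype labels only in part. The 10 genes matched as defining skeletal muscle summed to between 153148 and 403337 CPM per library, so the tissue label held in every library.

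After injury these genes were mostly lower, in both genotypes. In injured mutants against non-injured mutants, 38 of the 83 tested genes fell, 2 rose and 43 were not called. In injured against non-injured wild type fish, 37 fell, 1 rose and 45 were not called. The tests ran in edgeR over 16514 genes, and a call needed a p of less than 0.05 after Benjamini-Hochberg adjustment over all of them. Of all genes tested, 27.2% were called in the mutant comparison (13.3% fell and 14% rose) and 23.8% in the wild type comparison (11.9% fell and 11.8% rose), whereas 45.8% of the tested members fell in mutants and 44.6% in wild type fish. The median log2 fold change of the 83 genes was -0.66 in mutants and -0.73 in wild type fish, where the median of all genes was -0.02 in mutants and -0.03 in wild type fish. As the members were chosen with earlier results of these data known, these shares and medians are a description and not an independent check.

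**Figure D1:**
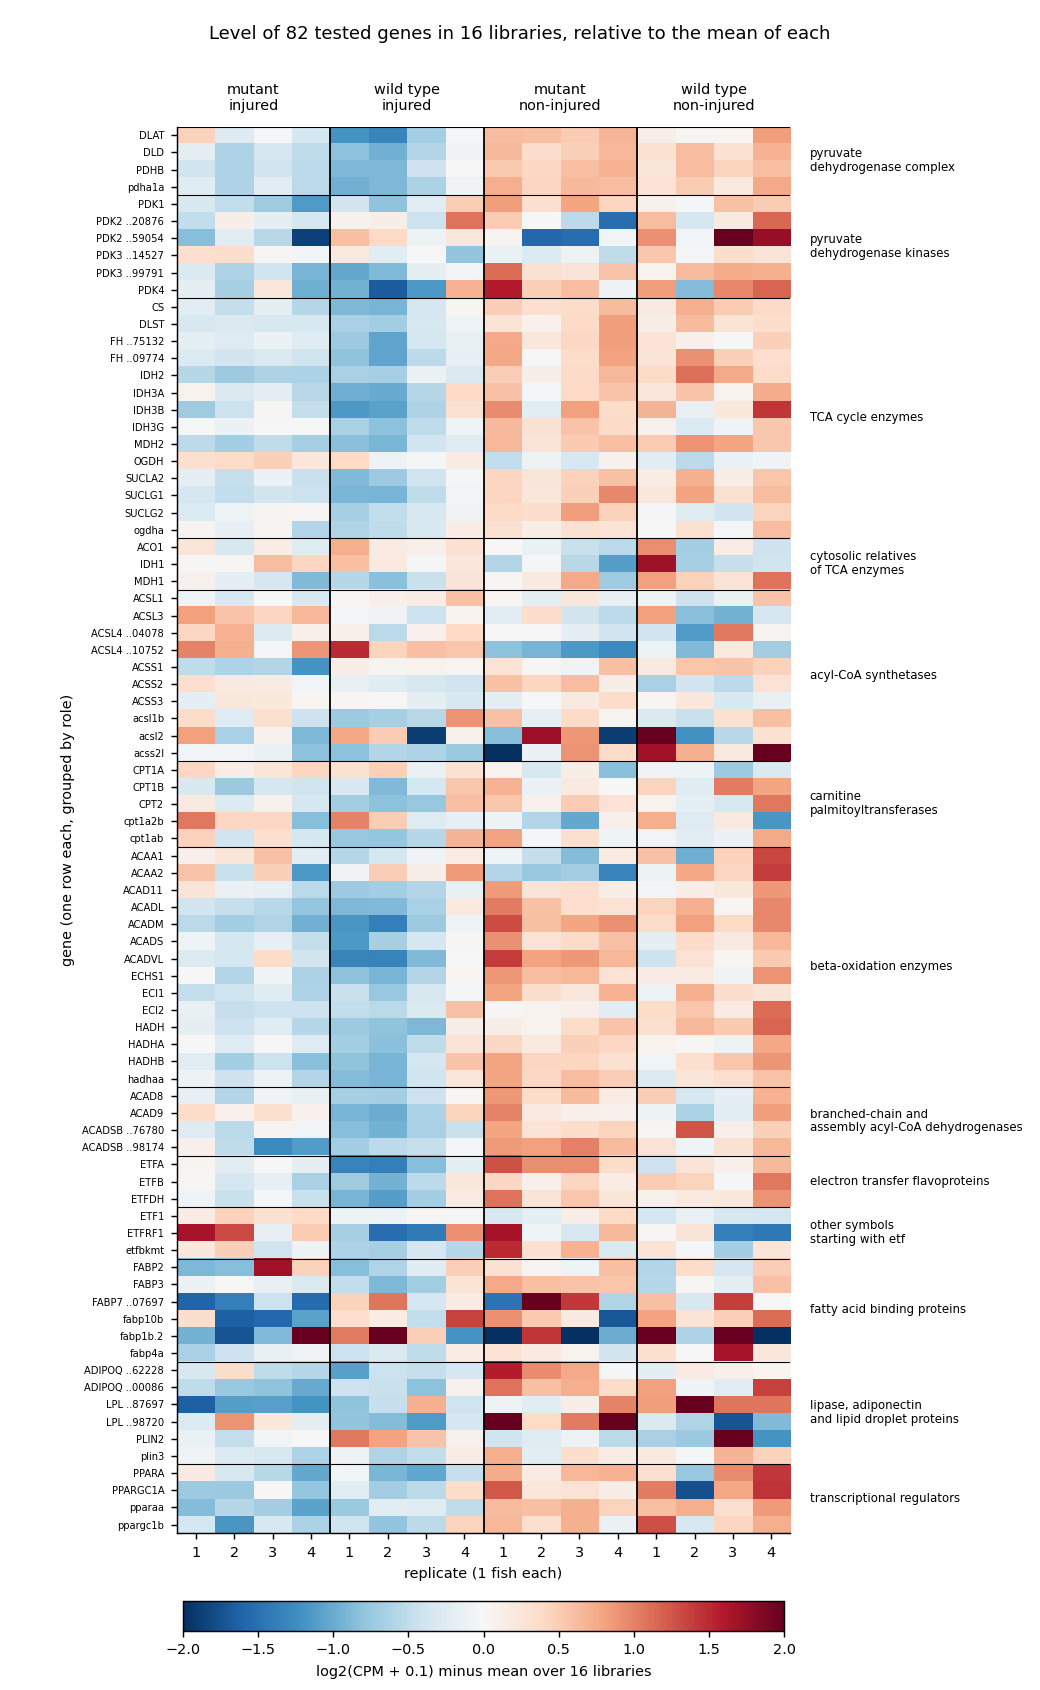
Level of 82 of the 83 tested genes in each of the 16 libraries, as log2(CPM + 0.1) minus that gene's mean over the libraries, with genes in rows grouped by role and libraries in columns by group. Most rows are blue in the injured libraries on the left and red in the non-injured libraries on the right, and replicate 4 of injured wild type is paler than the other 3 of its group.

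Fewer falls were called when libraries were scaled by library size alone. With DESeq2's type of size factors, 88 of 89 values for named genes kept direction and call. Scaling by library size alone moved the median of all genes to 0.26 in the mutant comparison and 0.34 in the wild type comparison. On that scale 21 of the 83 fell and 3 rose in mutants, and 17 fell and 4 rose in wild type fish. Calls in either direction then made up 28.9% of the members in mutants and 25.3% in wild type fish, against 23.5% and 25.5% of all genes, so the share called was no higher than that of all genes in wild type fish. Falls made up 25.3% of the members in mutants and 20.5% in wild type fish, against 4.72% and 3.25% of all genes, of which most calls were rises. The members' median was then -0.38 in mutants and -0.41 in wild type fish. Single fish also moved the wild type count. Without replicate 2 of injured wild type 22 fell, without its replicate 1 24 fell, without replicate 4 of non-injured wild type 23 fell, and without replicate 4 of injured wild type 52 fell. Calls over all genes, in either direction, dropped in some of these fits as well, from 23.8% in the full data. They were 15.5% without replicate 2 and 15.8% without replicate 1 of injured wild type, and 18.6% without replicate 4 of non-injured wild type. In mutants, leaving out any 1 library gave between 29 and 42 that fell. Of the calls of genes named by rule, 22 of 30 in mutants and 19 of 29 in wild type fish held without any 1 library. A fit of the 8 mutant libraries alone gave 47 that fell. A fit of the 8 wild type libraries alone gave 24, with 16.3% of all genes called in either direction. The share of all genes is not given for the fit with 52, nor for the mutant fits without 1 library or of mutants alone. No excess is read from those counts.

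The comparisons in mutants and in wild type fish share no library. In both, 27 genes fell, which is 71.1% of the 38 that fell in mutants and 73.0% of the 37 that fell in wild type fish. Of all genes tested, 1279 fell in both, which is 58.4% of those that fell in mutants and 64.9% of those that fell in wild type fish. Another 11 fell in mutants and were not called in wild type fish, and 10 fell in wild type fish and were not called in mutants. The sign of the fold change was the same in both for 75 of the 83 genes (90.4%), against 77.6% of all genes, and these differences in share were not tested. A difference between the responses was tested directly by the interaction of genotype and injury, for which 0 of the 83 genes were called, against 0.0606% of all genes (0.0182% positive and 0.0424% negative). DESeq2 also called 0 of them. In edgeR 8 had an unadjusted p below 0.05, a count given without the share of all genes.

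**Figure D2:**
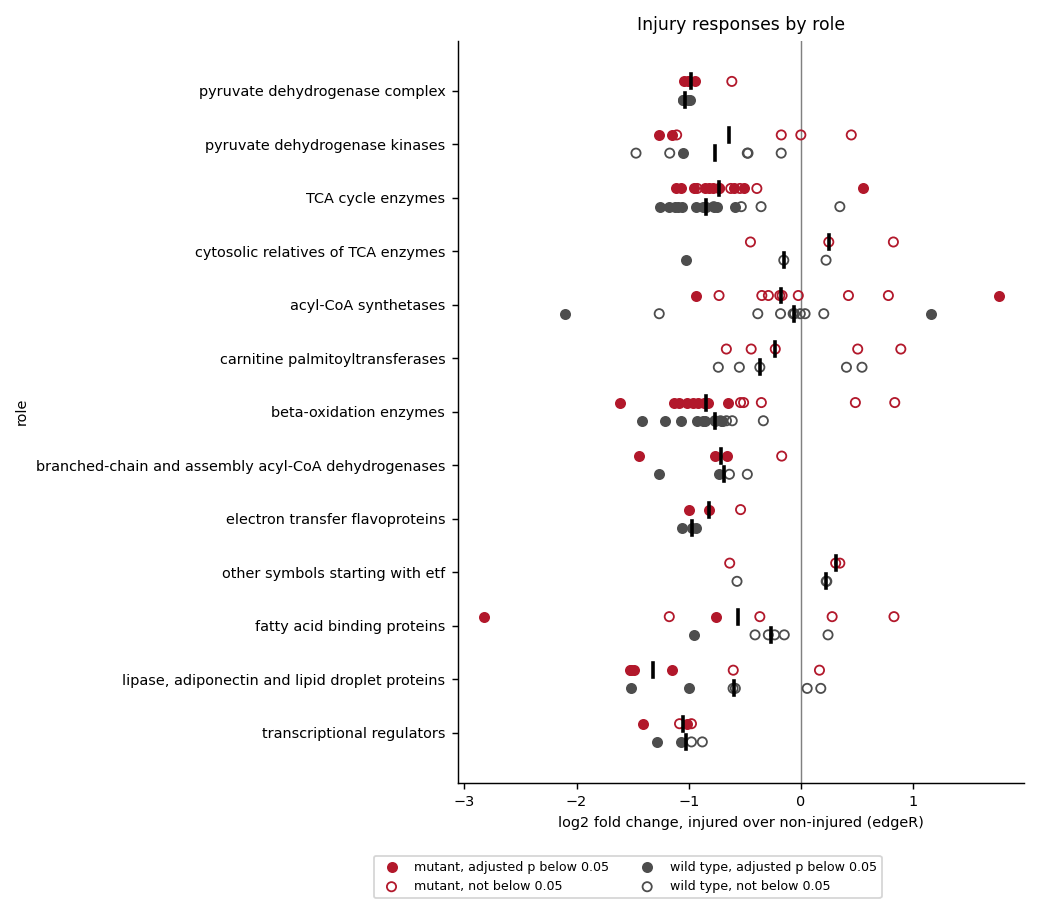
Log2 fold change of each tested gene in injured over non-injured muscle, by role, in mutant (red, upper line of each pair) and wild type fish (grey, lower line). Filled points had an adjusted p below 0.05, open points did not, and black bars are medians. The pyruvate dehydrogenase, TCA cycle, beta-oxidation and flavoprotein lines lie almost wholly left of 0, and the synthetases and carnitine palmitoyltransferases lie on both sides of it.

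The core of the pyruvate dehydrogenase complex fell. Of its 4 tested members, 3 fell in mutants and 4 in wild type fish. The median log2 fold change was -0.98 in mutants and -1.03 in wild type fish. Values follow in the order of replicates 1 to 4, and signed values without a unit are log2 fold changes. The transcript pdha1a, for the catalytic alpha subunit that decarboxylates pyruvate, had 372, 289, 378 and 304 CPM in injured mutants against 734, 597, 693 and 678 CPM in non-injured mutants. It had 228, 236, 286 and 424 CPM in injured wild type fish against 544, 628, 509 and 749 CPM in non-injured wild type fish. Every injured library was below every non-injured library of its genotype. Its log2 fold change was -1.01 in mutants (SE 0.20, adjusted p = 0.0017) and -1.05 in wild type fish (SE 0.20, adjusted p = 0.0017).

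PDHB, the beta subunit of the same enzyme, averaged 212 ± 15.4 CPM in injured and 436 ± 35.5 CPM in non-injured mutants, and 209 ± 66.6 CPM in injured and 414 ± 47.6 CPM in non-injured wild type fish (SD, n = 4 each). DLD, the dihydrolipoamide dehydrogenase that this complex shares with the oxoglutarate dehydrogenase complex, averaged 209.9 ± 27.3 CPM in injured and 405 ± 40.3 CPM in non-injured mutants. It averaged 188 ± 54.9 CPM in injured and 391 ± 54.5 CPM in non-injured wild type fish. Both genes fell in both genotypes. PDHB was at -1.04 in mutants and -0.99 in wild type fish (adjusted p = 0.00089 in mutants and 0.0016 in wild type fish). DLD was at -0.95 in mutants and -1.05 in wild type fish (adjusted p = 0.0018 in mutants and 0.0011 in wild type fish). The injured and non-injured libraries of a genotype did not overlap for either gene.

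DLAT, the acetyltransferase that makes acetyl-CoA in the complex, had 332, 202, 239 and 191 CPM in injured mutants against 373, 367, 346 and 391 CPM in non-injured mutants. In injured wild type fish it had 106, 97.4, 151 and 237 CPM, against 262, 246, 249 and 433 CPM in non-injured wild type fish. The groups of a genotype did not overlap. It fell in wild type fish (log2 fold change -1.01, SE 0.27, adjusted p = 0.014), and its value in mutants was -0.62 (adjusted p = 0.1). A fit of the mutant libraries alone called DLAT lower there (-0.59, adjusted p = 0.03). The wild type call was at adjusted p values of 0.052 to 0.053 without replicate 1 or 2 of injured wild type or replicate 4 of non-injured wild type, and 0.066 when only library size was scaled. The remaining paralog, pdha1b, had 16 counts in all and was not tested.

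The kinases that phosphorylate pyruvate dehydrogenase and switch it off were called less often. Of 6 tested, 2 fell in mutants and 1 fell in wild type fish. All 6 had a negative value in wild type fish and 5 had one in mutants. PDK2 ENSDARG00000059054 was not called after injury by edgeR in the full data. In wild type fish DESeq2 called it lower (-1.47, adjusted p = 0.025). So did edgeR without replicate 1 (0.049) or 2 (0.022) of non-injured wild type. In mutants its sign changed between fits. PDK3 ENSDARG00000099791 had 15.1, 12.1, 14.02 and 9.74 CPM in injured mutants against 40.3, 23.0, 22.2 and 27.5 CPM in non-injured mutants, and 9.09, 10.03, 16.2 and 17.8 CPM in injured wild type fish against 19.6, 28.9, 31.2 and 30.5 CPM in non-injured wild type fish. Neither comparison overlapped, with log2 fold changes of -1.15 in mutants (adjusted p = 0.0034) and -1.05 in wild type fish (adjusted p = 0.0065). PDK1 fell in mutants, with 4.62, 4.05, 3.45 and 2.56 CPM in injured against 10.3, 7.31, 9.97 and 7.80 CPM in non-injured mutants (log2 fold change -1.27, adjusted p = 0.0024). Its wild type value was -0.47 (adjusted p = 0.19), with 4.46, 3.26, 4.91 and 8.11 CPM in injured and 6.10, 5.61, 8.72 and 8.25 CPM in non-injured wild type fish. Without replicate 4 of injured wild type it fell there too (-0.78, adjusted p = 0.025). The difference between these responses of PDK1 had an interaction of -0.79 (adjusted p = 0.68).

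PDK4, which fasting induces in mammalian muscle, varied widely between fish. It had 34.3, 24.5, 45.6 and 19.8 CPM in injured mutants against 117, 54.1, 59.9 and 36.5 CPM in non-injured mutants, and 20.1, 12.2, 17.5 and 63.4 CPM in injured wild type fish against 69.5, 21.4, 75.7 and 87.8 CPM in non-injured wild type fish. Its log2 fold changes of -1.11 in mutants and -1.17 in wild type fish had an SE of 0.54 each, and neither was called (adjusted p = 0.14 in mutants and 0.13 in wild type fish).

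Among the enzymes of the TCA cycle itself, 10 of 15 tested fell and 1 rose in mutants, and 11 fell in wild type fish. The median log2 fold change was -0.73 in mutants and -0.85 in wild type fish. MDH2, the mitochondrial malate dehydrogenase that closes the cycle, had 1021, 917, 1037 and 931 CPM in injured mutants against 2323, 1765, 2111 and 2240.2 CPM in non-injured mutants. In injured wild type fish it had 829, 785, 1131 and 1230.4 CPM, against 2095, 2733, 2537 and 2146 CPM in non-injured wild type fish. No injured library reached a non-injured one of its genotype. This gave a log2 fold change of -1.11 in mutants (SE 0.17, adjusted p = 0.00029) and -1.26 in wild type fish (SE 0.17, adjusted p = 0.00014), so the injured level was 0.463 times the non-injured level in mutants and 0.418 times in wild type fish.

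IDH2, the mitochondrial isocitrate dehydrogenase that reduces NADP, had 1218, 1093, 1179 and 1165 CPM in injured mutants against 2564, 1979, 2372 and 2876 CPM in non-injured mutants. It had 1152, 1143, 1678 and 1482 CPM in injured wild type fish against 2394, 3888, 3068 and 2338 CPM in non-injured wild type fish. Injured and non-injured libraries were again apart, and the log2 fold change was -1.07 in mutants (adjusted p = 0.00089) and -1.10 in wild type fish (adjusted p = 0.00097). The subunits of the NAD-dependent isocitrate dehydrogenase were less uniform. IDH3G fell in both genotypes, at -0.51 in mutants and -0.59 in wild type fish, and both calls were lost without single libraries (8 in mutants, adjusted p up to 0.1 without replicate 1 of the non-injured mutants, and 4 in wild type fish, up to 0.087 without replicate 4 of non-injured wild type). IDH3A and IDH3B fell in wild type fish (-0.85 and -1.17), and in mutants had values of -0.63 (adjusted p = 0.1) and -0.92 (adjusted p = 0.08). Their wild type calls were each lost without any 1 of 5 libraries, with adjusted p values up to 0.11 for IDH3A (without replicate 2 of injured wild type) and 0.14 for IDH3B (without replicate 4 of non-injured wild type). All of the IDH3 calls ended under library size alone, at adjusted p values of 0.47 for IDH3G in mutants and, in wild type fish, 0.35 for IDH3G, 0.14 for IDH3A and 0.1 for IDH3B.

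The succinyl-CoA and fumarate steps moved the same way. SUCLG1, the alpha subunit common to both succinyl-CoA ligases, averaged 159 ± 8.14 CPM in injured and 308 ± 69.7 CPM in non-injured mutants, and 143 ± 43.4 CPM in injured and 298 ± 55.6 CPM in non-injured wild type fish (SD, n = 4 each). It fell in both, at -0.96 in mutants (adjusted p = 0.0036) and -1.06 in wild type fish (adjusted p = 0.0023). The partner subunit of the ATP-forming ligase, SUCLA2, fell in both, at -0.73 in mutants (adjusted p = 0.01) and -0.88 in wild type fish (adjusted p = 0.0042). The GTP-forming partner, SUCLG2, fell in mutants (-0.59, adjusted p = 0.023) and had a value of -0.35 in wild type fish (adjusted p = 0.17). The SUCLG2 call was lost without replicate 1 or 2 of the injured mutants or replicate 3 of the non-injured ones (up to 0.085). The mutant calls of SUCLA2 (0.072) and SUCLG2 (0.33) ended under library size alone.

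DLST, the succinyltransferase of the oxoglutarate dehydrogenase complex, had 213, 216, 213 and 215 CPM in injured mutants against 322, 281, 349.7 and 474 CPM in non-injured mutants. In wild type fish it had 169, 165, 213 and 249.8 CPM with injury and 289, 411, 322 and 338 CPM without. The groups did not overlap, and the injured mutants hardly differed among themselves. DLST fell, at -0.73 in mutants (adjusted p = 0.0069) and -0.77 in wild type fish (adjusted p = 0.0059). Fumarase is represented by a pair of IDs, of which FH ENSDARG00000109774 fell, at -0.85 in mutants and -1.12 in wild type fish. FH ENSDARG00000075132 fell as well, at -0.78 in mutants and -0.75 in wild type fish, and both calls ended under library size alone (0.067 in mutants and 0.086 in wild type fish). Citrate synthase, CS, which condenses acetyl-CoA with oxaloacetate, fell, at -0.82 in mutants (adjusted p = 0.0081) and -0.93 in wild type fish (adjusted p = 0.0044). The oxoglutarate dehydrogenase gene ogdha was not called, at -0.39 in mutants and -0.53 in wild type fish.

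The exception, named after its value was seen, was the ID that carries the symbol OGDH, ENSDARG00000103428. It had 15.8, 16.2, 17.5 and 14.5 CPM in injured mutants against 8.83, 11.6, 9.97 and 13.2 CPM in non-injured mutants, and 16.4, 11.7, 12.1 and 14.03 CPM in injured wild type fish against 10.7, 8.65, 11.5 and 11.9 CPM in non-injured wild type fish. Injured mutants lay wholly above non-injured mutants, whereas the wild type groups overlapped. It rose by 0.55 in mutants (SE 0.15, adjusted p = 0.013), and its wild type value was 0.35 (adjusted p = 0.1), with an interaction of 0.20 (adjusted p = 0.91). The third oxoglutarate dehydrogenase ID, OGDHL, had 55 counts in all and was not tested.

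**Figure D3:**
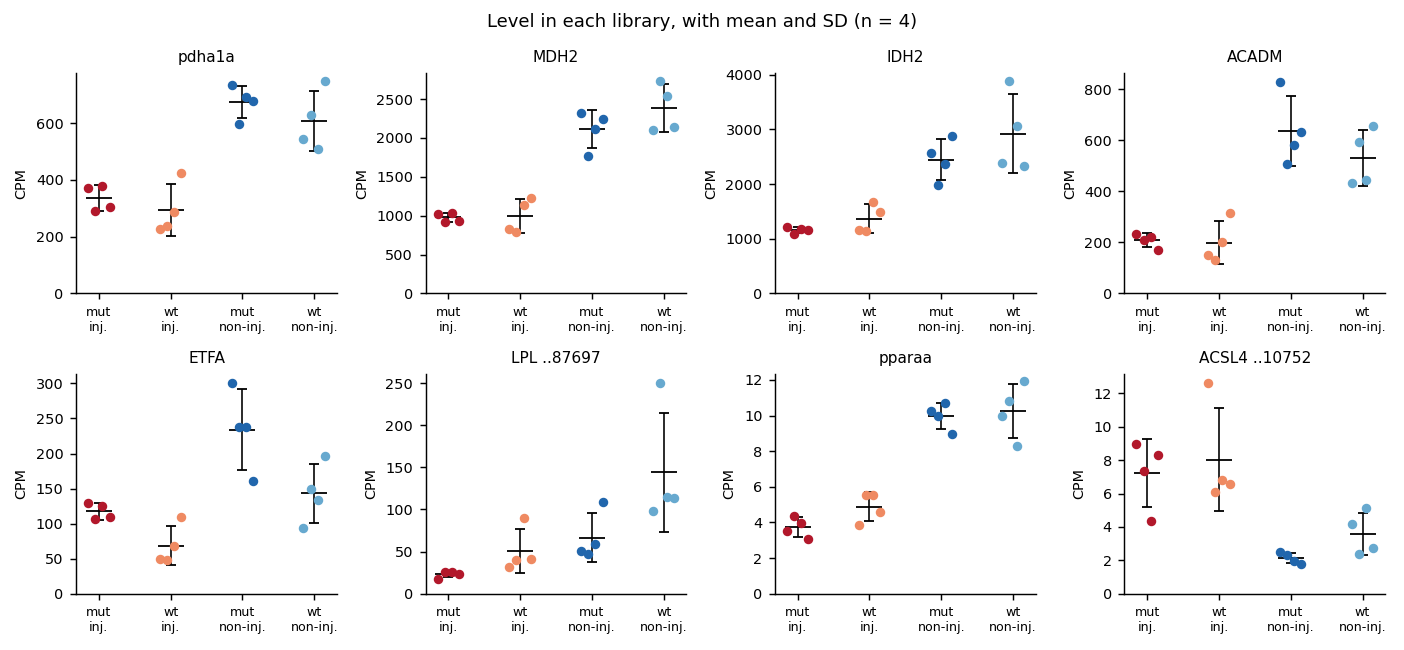
Level in CPM of 8 genes in each of the 16 libraries (points), with the mean and SD of each group of 4 fish, and injured groups to the left of non-injured ones. pdha1a, MDH2, IDH2, ACADM, ETFA, LPL ENSDARG00000087697 and pparaa are lower in injured groups, and ACSL4 ENSDARG00000010752 is higher. ETFA overlaps between the wild type groups, as 1 injured fish at 109 CPM lies above 1 non-injured fish at 93.6 CPM.

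The cytosolic relatives of TCA enzymes did not move as a group. MDH1, the cytosolic malate dehydrogenase of the malate-aspartate shuttle, fell in wild type fish, with 201, 167, 217 and 356 CPM in injured against 527, 409, 355 and 627 CPM in non-injured fish (log2 fold change -1.03, adjusted p = 0.025). The wild type groups overlapped by 1 injured fish, and the call was lost without any 1 of replicates 1, 2 and 3 of injured wild type or replicate 4 of non-injured wild type (adjusted p between 0.06 and 0.083) and under library size alone (0.14). In mutants MDH1 had 314, 263, 235 and 161 CPM in injured and 307, 339, 502 and 181 CPM in non-injured fish, with a log2 fold change of -0.45 (adjusted p = 0.3). ACO1 and IDH1, which are cytosolic, were not called in either genotype, with values of 0.25 and 0.82 in mutants and 0.22 and -0.15 in wild type fish.

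Fatty acids enter these pathways as acyl-CoA, and the synthetases that make it were divided. Of 10 tested, 1 rose and 1 fell in each genotype. ACSL4 ENSDARG00000010752, a long-chain synthetase that in mammals prefers arachidonic acid, was the 1 gene of the 83 that rose in both genotypes. It had 8.95, 7.36, 4.34 and 8.33 CPM in injured mutants against 2.48, 2.29, 1.95 and 1.79 CPM in non-injured mutants, and 12.6, 6.09, 6.80 and 6.59 CPM in injured wild type fish against 4.15, 2.38, 5.11 and 2.72 CPM in non-injured wild type fish. No injured library reached down to a non-injured one of its genotype. The log2 fold change was 1.76 in mutants (SE 0.30, adjusted p = 0.00069) and 1.16 in wild type fish (SE 0.29, adjusted p = 0.0095). The other ACSL4 ID, ENSDARG00000004078, was not called, at 0.42 in mutants and -0.07 in wild type fish. Both IDs are estimated counts of related sequences, so reads could be divided between them.

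Among acetate-activating enzymes, ACSS1 was called lower in mutants and acss2l in wild type fish. ACSS1, the mitochondrial acetyl-CoA synthetase in mammals, had 6.20, 5.71, 5.87 and 3.86 CPM in injured mutants against 10.7, 9.02, 8.39 and 13.5 CPM in non-injured mutants and fell, at -0.94 (adjusted p = 0.00094). In wild type fish it had 9.67, 9.17, 9.26 and 9.13 CPM with injury against 10.02, 13.1, 13.2 and 12.3 CPM without (-0.38, adjusted p = 0.1). The injured and non-injured groups of ACSS1 did not overlap in either genotype. For acss2l the call was in wild type fish. It had 3.26, 3.87, 3.78 and 3.46 CPM in injured wild type fish against 18.9, 9.63, 6.66 and 26.6 CPM in non-injured wild type fish and fell, at -2.10 (SE 0.49, adjusted p = 0.007). In mutants it had 5.64, 5.62, 5.33 and 3.26 CPM with injury and 1.35, 5.39, 11.03 and 7.54 CPM without (-0.35, adjusted p = 0.63). The interaction did not pass for either gene, at -0.55 for ACSS1 (adjusted p = 0.64) and 1.75 for acss2l (adjusted p = 0.61).

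The carnitine palmitoyltransferases, which admit long-chain fatty acids to the mitochondrion, were mixed in direction. None of the 5 tested genes was called in mutants or in wild type fish by edgeR, and DESeq2 called 0 in mutants and 1 in wild type fish, CPT1A, which rose there (adjusted p = 0.046) and under library size alone (0.023). Their log2 fold changes lay between -0.66 and 0.89 in mutants and between -0.74 and 0.54 in wild type fish, and 2 of the 5 had an unadjusted p below 0.05 in each. CPT1B, the muscle form in mammals, had 51.8, 38.3, 50.4 and 48.5 CPM in injured mutants against 104, 59.1, 72.8 and 63.6 CPM in non-injured mutants, and 51.7, 34.7, 50.5 and 94.0 CPM in injured wild type fish against 87.1, 54.2, 132 and 111 CPM in non-injured wild type fish. The mutant groups did not overlap and the wild type groups did. Its values of -0.66 in mutants (adjusted p = 0.11) and -0.74 in wild type fish (adjusted p = 0.085) were on the same side as the called enzymes. It was called in wild type fish without replicate 4 of the injured group (-1.08, adjusted p = 0.011), without replicate 2 of the non-injured group (0.028) or with the replicate number as a block (0.041), and in mutants when these were fitted alone (0.025).

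The gene cpt1ab encodes another carnitine palmitoyltransferase of the outer membrane. It had 113, 61.9, 104 and 64.3 CPM in injured mutants against 143, 79.6, 102 and 77.0 CPM in non-injured mutants, and 48.4, 47.6, 54.7 and 130.5 CPM in injured wild type fish against 78.7, 70.6, 75.4 and 138 CPM in non-injured wild type fish. In wild type, replicate 4 of the injured and of the non-injured group stood above the other 3. Its log2 fold change was -0.23 in mutants (adjusted p = 0.66) and -0.37 in wild type fish (adjusted p = 0.48), and -0.85 in wild type fish without replicate 4 of the injured group (adjusted p = 0.045). CPT2, which reforms acyl-CoA inside the inner membrane, was at -0.44 in mutants and -0.55 in wild type fish (-1.03 without replicate 4 of the injured group, adjusted p = 0.015), and CPT1A, the liver form in mammals, was at 0.51 and 0.54. None of these was called in the full data by edgeR.

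Most beta-oxidation enzymes fell. In each genotype 9 of 14 tested were called lower and none higher, with a median log2 fold change of -0.85 in mutants and -0.77 in wild type fish. All 14 had a negative value in wild type fish and 12 had one in mutants. Under library size alone 2 of the 14 fell in wild type fish, where 3.25% of all genes fell. ACADM, the medium-chain acyl-CoA dehydrogenase, changed most among the 14 in the full fit. It had 231, 209.6, 222 and 172 CPM in injured mutants against 827, 508, 579.9 and 632 CPM in non-injured mutants, and 149.8, 130.1, 202 and 315 CPM in injured wild type fish against 432, 592, 445 and 654 CPM in non-injured wild type fish. Neither comparison overlapped, though replicate 4 of injured wild type came nearest to the non-injured fish. Its log2 fold change was -1.61 in mutants (SE 0.25, adjusted p = 0.0004) and -1.41 in wild type fish (SE 0.25, adjusted p = 0.0013).

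The acyl-CoA dehydrogenases for other chain lengths followed it. ACADL, for long chains, averaged 72.2 ± 8.20 CPM in injured and 159 ± 40.5 CPM in non-injured mutants, and 74.9 ± 30.6 CPM in injured and 157 ± 41.3 CPM in non-injured wild type fish (SD, n = 4 each). It fell, at -1.14 in mutants (adjusted p = 0.0047) and -1.07 in wild type fish (adjusted p = 0.0078). ACADVL, for very long chains, fell, at -1.09 in mutants and -0.93 in wild type fish, and ACADS, for short chains, fell at -0.83 in mutants and -0.77 in wild type fish. The wild type calls of ACADVL and ACADS were lost without replicate 1 or 2 of injured wild type or replicate 4 of non-injured wild type, and that of ACADVL also without replicate 3 of the injured or 2 of the non-injured group (adjusted p up to 0.11 for ACADVL and 0.081 for ACADS). The mutant call of ACADS was lost without replicate 1 of the non-injured mutants (0.052). Library size alone ended the calls of ACADS in mutants (0.094) and wild type fish (0.16) and the wild type calls of ACADVL (0.12) and ACADL (just above 0.05). ACAD11 fell in wild type fish (-0.86, adjusted p = 0.013) and was at -0.54 in mutants (adjusted p = 0.091). Its wild type call was lost without replicate 4 of non-injured wild type (0.051) and under library size alone (0.15).

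The later steps of chain shortening fell in part. HADH, the short-chain hydroxyacyl-CoA dehydrogenase, fell in wild type fish, with 55.6, 52.6, 49.5 and 100.3 CPM in injured against 115, 144, 132 and 206 CPM in non-injured fish (-1.21, SE 0.23, adjusted p = 0.0018). In mutants it had 80.3, 69.4, 77.9 and 61.9 CPM with injury against 99.8, 97.2, 119 and 137 CPM without (-0.65, adjusted p = 0.046), a call close to the threshold. Without any 1 of 11 libraries that mutant call was lost, at adjusted p values up to 0.12, as it was under library size alone (0.31). The 11 were all 4 injured mutants, replicates 1, 3 and 4 of the non-injured mutants, replicates 1 and 2 of injured wild type and replicates 2 and 3 of non-injured wild type.

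ECHS1, the short-chain enoyl-CoA hydratase, fell, at -0.91 in mutants (adjusted p = 0.013) and -0.87 in wild type fish (adjusted p = 0.019). ECI1, an isomerase for unsaturated fatty acids, fell, at -0.96 in mutants (adjusted p = 0.0017) and -0.71 in wild type fish (adjusted p = 0.013). Library size alone ended the ECHS1 calls in mutants (0.1) and wild type fish (0.14) and the ECI1 call in wild type fish (0.12). The wild type call of ECHS1 was also lost without replicate 1 or 2 of injured wild type or replicate 4 of non-injured wild type (adjusted p between 0.064 and 0.074), and that of ECI1 without replicate 2 of injured wild type. ECI2 was called lower in wild type fish as well. That call was lost without any 1 of 12 libraries (adjusted p up to 0.16) and under library size alone (0.28). Of the trifunctional protein, which carries out the last steps on long chains, HADHB fell in mutants (-1.02, adjusted p = 0.017) and hadhaa fell in mutants (-0.86, adjusted p = 0.014). The HADHB call was lost without replicate 4 of the injured mutants (0.056), and library size alone ended both calls (0.068 for HADHB and 0.074 for hadhaa). In wild type fish HADHB was at -0.72 and hadhaa at -0.66, neither called, and HADHA was not called in either genotype.

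The thiolases had positive values in mutants and negative ones in wild type fish. By edgeR neither was called after injury in the full data, and the interaction was not called for either. ACAA2, the mitochondrial thiolase that releases acetyl-CoA, had a log2 fold change of 0.84 in mutants (adjusted p = 0.11; 1.08 and 0.034 without replicate 4 of the injured mutants) and -0.33 in wild type fish (adjusted p = 0.55). ACAA1, the peroxisomal thiolase, was at 0.49 in mutants (adjusted p = 0.34) and -0.77 in wild type fish (adjusted p = 0.13). These were the 2 beta-oxidation genes with a positive value in mutants.

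Electrons from the acyl-CoA dehydrogenases pass to the electron transfer flavoprotein and then to its dehydrogenase. All 3 of these genes fell in wild type fish and 2 fell in mutants. ETFA, the alpha subunit, had 129, 106, 125 and 109 CPM in injured mutants against 301, 237, 238 and 160.1 CPM in non-injured mutants, and 49.1, 48.2, 68.7 and 109 CPM in injured wild type fish against 93.6, 149, 134 and 196 CPM in non-injured wild type fish. The mutant groups did not overlap, and replicate 4 of injured wild type overlapped the non-injured range. It fell, at -0.997 in mutants (SE 0.27, adjusted p = 0.013) and -1.06 in wild type fish (SE 0.27, adjusted p = 0.011), and both calls were lost under library size alone (adjusted p = 0.059 in mutants and 0.055 in wild type fish).

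ETFB, the beta subunit, averaged 100.2 ± 18.9 CPM in injured and 145 ± 17.4 CPM in non-injured mutants, and 89.8 ± 34.5 CPM in injured and 175 ± 54.8 CPM in non-injured wild type fish (SD, n = 4 each). It fell in wild type fish (-0.97, adjusted p = 0.012) and was at -0.54 in mutants (adjusted p = 0.13). A fit of the mutant libraries alone called ETFB lower there (-0.51, adjusted p = 0.034). ETFDH, which hands the electrons to ubiquinone, fell, at -0.82 in mutants (adjusted p = 0.037) and -0.93 in wild type fish (adjusted p = 0.023). Its mutant call was lost without any 1 of 6 mutant libraries, the 4 injured ones and replicates 1 and 3 of the non-injured ones (adjusted p up to 0.13). The wild type call was lost without replicate 1, 2 or 3 of injured wild type or replicate 4 of non-injured wild type (up to 0.082). Library size alone ended the calls of ETFB (0.084) and of ETFDH in mutants (0.18) and wild type fish (0.11).

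The symbol rule also took in genes of other roles that start with etf, and none of the 3 tested was called in either genotype by edgeR (1 had an unadjusted p below 0.05 in mutants and 0 in wild type fish) or by DESeq2. ETF1, the translation release factor, is unrelated to the flavoproteins and was at 0.31 in mutants (adjusted p = 0.12) and 0.23 in wild type fish (adjusted p = 0.26). Scaled by library size alone it was at 0.60 in both genotypes (adjusted p = 0.011 in each).

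The remaining acyl-CoA dehydrogenase symbols comprise a pair of ACADSB IDs and ACAD8, which act on branched-chain amino acids, and ACAD9, which in mammals helps to assemble respiratory complex I. The first 3 fell in mutants, the ACADSB pair fell in wild type fish, and ACAD9 was not called in either. ACADSB ENSDARG00000076780, which in mammals acts on isoleucine breakdown products, averaged 56.1 ± 9.73 CPM in injured and 88.7 ± 14.6 CPM in non-injured mutants, and 38.8 ± 6.13 CPM in injured and 93.1 ± 40.4 CPM in non-injured wild type fish (SD, n = 4 each). It fell clearly in wild type fish (-1.26, adjusted p = 0.0018) and just passed in mutants (-0.66, adjusted p just under 0.05), where 12 of 16 single libraries could not be left out without losing the call (up to 0.14 without replicate 1 of the non-injured mutants). The other ID, ACADSB ENSDARG00000098174, fell clearly in mutants (-1.44, adjusted p = 0.001) and just passed in wild type fish (-0.73), a call lost without any 1 of 11 libraries (up to 0.14 without replicate 4 of non-injured wild type). Library size alone ended these borderline calls of both IDs, at 0.17 in mutants and 0.34 in wild type fish. ACAD8, for valine, fell in mutants (-0.76, adjusted p = 0.025), a call lost without replicate 1 or 3 of the non-injured or replicate 2 of the injured mutants (up to 0.081) and under library size alone (0.22). In wild type fish DESeq2 called ACAD8 lower (-0.64, adjusted p = 0.04). So did edgeR without replicate 2 (0.026) or 3 (0.042) of non-injured or replicate 4 of injured wild type (0.024). Without the libraries highest in muscle genes it was called there too (-0.98, adjusted p = 0.018).

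Proteins that deliver or store lipid were sparser and more variable. Of 12 fatty acid binding protein genes, 6 were tested, and the liver and intestinal types FABP1 (a pair of IDs) and FABP6 had 0 counts in every library. FABP3, the form of heart and skeletal muscle in mammals, had 88.9, 97.0, 86.6 and 79.0 CPM in injured mutants against 163, 146, 144 and 141 CPM in non-injured mutants, with no overlap. It fell there, at -0.76 (adjusted p = 0.031). In wild type fish it had 68.8, 51.9, 59.7 and 116 CPM with injury and 65.3, 98.5, 84.9 and 145 CPM without (-0.41, adjusted p = 0.24), and without replicate 4 of injured wild type -0.71 (adjusted p = 0.022). The mutant call was lost without replicate 1, 2 or 3 of the non-injured or replicate 1, 3 or 4 of the injured mutants (adjusted p up to 0.081) and under library size alone (0.2).

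The adipocyte type fabp4a fell in wild type fish, where 1 fish weighed heavily. It had 94.2, 104, 89.1 and 141 CPM in injured wild type fish against 157, 126, 397 and 148 CPM in non-injured wild type fish, and replicate 3 of the non-injured group stood far above the rest. The log2 fold change was -0.95 (SE 0.31, adjusted p = 0.034), and it was -0.41 without that fish (adjusted p = 0.16). The adjusted p was 0.066 with the replicate number as a block, between 0.082 and 0.089 without replicate 1, 2 or 3 of injured wild type, and 0.19 under library size alone. In mutants fabp4a had 80.7, 95.2, 114 and 121 CPM with injury and 153, 145, 133 and 98.3 CPM without (-0.37, adjusted p = 0.4). FABP7 ENSDARG00000007697, a brain type in mammals, had the most negative value of any member, -2.83 in mutants (SE 0.82, adjusted p = 0.018). It was near the limit of detection, with 0.140, 0.184, 0.444 and 0.151 CPM in injured and 0.162, 4.22, 1.85 and 0.384 CPM in non-injured mutants, and the groups overlapped. Its adjusted p was 0.094 without replicate 2 of the non-injured mutants and 0.053 without replicate 1 or 4 of the injured ones.

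Lipoprotein lipase, which frees fatty acids from circulating lipoproteins, was lower after injury in its abundant form. LPL ENSDARG00000087697 had 17.6, 25.5, 25.7 and 23.7 CPM in injured mutants against 50.9, 46.8, 59.4 and 109 CPM in non-injured mutants, and 31.3, 39.5, 89.5 and 41.4 CPM in injured wild type fish against 97.6, 249.7, 114 and 114 CPM in non-injured wild type fish. All injured fish lay below all non-injured fish of their genotype. The fitted log2 fold change was -1.52 in mutants (SE 0.37, adjusted p = 0.0077) and -1.51 in wild type fish (SE 0.37, adjusted p = 0.0088). The adiponectin gene ADIPOQ ENSDARG00000100086 fell, at -1.49 in mutants (adjusted p = 0.0026) and -0.995 in wild type fish (adjusted p = 0.026). ADIPOQ ENSDARG00000062228 fell in mutants (-1.15, adjusted p = 0.0085). The wild type call of the first ADIPOQ was lost without replicate 1, 2 or 3 of injured wild type or replicate 1 or 4 of non-injured wild type (adjusted p up to 0.11). Library size alone gave 0.17 for that call and 0.051 for ADIPOQ ENSDARG00000062228 in mutants. The tested perilipins, PLIN2 and plin3, which coat lipid droplets, were not called in either genotype in the full data. DESeq2 called plin3 lower in mutants (adjusted p = 0.034) and in wild type fish (0.044), and in mutants so did a fit of their libraries alone (0.048) and DESeq2's type of size factors (just under 0.05). Leaving out single libraries also brought plin3 below 0.05 in both genotypes. PLIN2 was called higher in wild type fish without replicate 3 of the non-injured group (1.62, adjusted p = 0.001) or without the libraries highest in muscle genes (1.71, adjusted p = 0.0076), and plin1 had 1 count in all.

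The 4 regulators among the members all had negative values after injury in both genotypes, but not all were called. Of the 4, 2 were called in each genotype, and 1 was called in both. That gene, pparaa, encodes a PPAR-alpha nuclear receptor. It had 3.54, 4.37, 4.00 and 3.06 CPM in injured mutants against 10.2, 9.98, 10.7 and 8.95 CPM in non-injured mutants, and 3.88, 5.55, 5.53 and 4.56 CPM in injured wild type fish against 9.96, 10.8, 8.31 and 11.9 CPM in non-injured wild type fish. Injured and non-injured fish were clearly apart in both genotypes, with log2 fold changes of -1.41 in mutants (SE 0.16, adjusted p = 2e-05) and -1.07 in wild type fish (SE 0.15, adjusted p = 0.00025).

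Its paralog, under the symbol PPARA, fell in wild type fish (-1.28, adjusted p = 0.023) and was at -0.98 in mutants (adjusted p = 0.067). The coactivator ppargc1b fell in mutants (-1.02, adjusted p = 0.032) and was at -0.88 in wild type fish (adjusted p = 0.064). The PPARA call was lost without replicate 2 or 3 of injured or replicate 3 or 4 of non-injured wild type (adjusted p up to 0.091), and the ppargc1b call without replicate 2 or 4 of injured or replicate 1 or 3 of non-injured mutants (up to 0.095). Library size alone gave 0.11 for the first and 0.15 for the second. Other alternatives added calls. PPARA in mutants was called by DESeq2 (0.045), in mutants fitted alone (0.016) and without replicate 2 or 4 of non-injured wild type or replicate 1 of the injured mutants (0.025 to 0.046). The wild type value of ppargc1b was called by DESeq2 (0.034), without replicate 4 of injured wild type (-1.22, adjusted p = 0.015) or replicate 2 of non-injured wild type (0.021), and without the 4 libraries highest in muscle genes (0.037). PPARGC1A, for PGC-1-alpha, had 12.96, 12.8, 21.4 and 12.6 CPM in injured mutants against 51.4, 25.1, 26.4 and 23.6 CPM in non-injured mutants, and 18.5, 13.3, 14.8 and 27.7 CPM in injured wild type fish against 43.7, 6.28, 36.9 and 58.9 CPM in non-injured wild type fish. The non-injured wild type fish spread too far for a call, at -0.98 (SE 0.48, adjusted p = 0.16), and the mutant value was -1.08 (SE 0.48, adjusted p = 0.11).

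Other genes of the same pathways, from a list fixed together with the members, were more often called lower than higher. Like the members, they were chosen with earlier results of these data known, so they are not an independent check. Of 75 tested, 22 fell and 1 rose in mutants, and 26 fell and 2 rose in wild type fish. The share that fell was 29.3% in mutants and 34.7% in wild type fish, against 13.3% and 11.9% of all genes. Under library size alone 11 fell and 3 rose in mutants and 10 fell and 5 rose in wild type fish, so that 18.7% were called in mutants and 20% in wild type fish, below the 23.5% and 25.5% of all genes. Falls alone were then 14.7% of the 75 in mutants and 13.3% in wild type fish, against 4.72% and 3.25% of all genes. Succinate dehydrogenase, the TCA enzyme that is also respiratory complex II, fell in its SDHA subunit, at -1.20 in mutants and -1.32 in wild type fish (adjusted p = 0.0027 in mutants and 0.0018 in wild type fish). MPC1, of the mitochondrial pyruvate carrier, fell, at -0.83 in mutants and -1.13 in wild type fish, and PDHX, the binding protein of the pyruvate dehydrogenase complex, fell at -0.98 in mutants and -1.02 in wild type fish. The nuclear receptor rxrga, of the family that pairs with PPARs, fell, at -1.07 in mutants and -1.08 in wild type fish. Other listed regulators were divided. In both genotypes rxrbb and TFAM fell, and rxrgb was called lower in wild type fish only. The RXRA and PPARD IDs, RXRB ENSDARG00000078954, pparg, ESRRA, esrrb, NRF1, nrip1b and NRIP1 were not called in either. PC ENSDARG00000098766, pyruvate carboxylase, which makes oxaloacetate from pyruvate, went the other way and rose by 1.85 in both genotypes (adjusted p = 8.5e-05 in mutants and 0.00011 in wild type fish). DECR2, a peroxisomal dienoyl-CoA reductase in mammals, was the second to rise in wild type fish (1.13, adjusted p = 0.0038).

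Summed over their genes, the TCA cycle enzymes stood at 4398 to 5194 CPM in injured mutants against 7619 to 9613 CPM in non-injured mutants, and at 3679 to 6131 CPM in injured wild type fish against 7948 to 10975 CPM in non-injured wild type fish. The beta-oxidation enzymes stood at 1050.3 to 1449 CPM in injured against 2230.2 to 3094 CPM in non-injured mutants, and at 833 to 1843 CPM in injured against 1699 to 2891 CPM in non-injured wild type fish. Neither sum overlapped in mutants, and the beta-oxidation sum overlapped in wild type fish through replicate 4 of the injured group.

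Some summed markers of fibre type and of other cells differed with injury too, in both directions. The 17 genes matched as slow oxidative fibre markers summed to 1469 to 1785 CPM in injured mutants against 3805 to 6109.8 CPM in non-injured mutants, and to 1212 to 1763 CPM in injured against 1605 to 4950.3 CPM in non-injured wild type fish, so the groups overlapped in wild type fish alone. Of the 17, tnnc1a had 1 count in all, and smyhc2, mb, tpm3 and tnnc1 had the highest means in non-injured fish. Not all were lower after injury. The listed gene sox6 averaged 62.7 CPM in injured and 60.7 CPM in non-injured mutants, and 61.6 CPM and 66.6 CPM in wild type fish. In wild type fish myh7 averaged 1.26 CPM with injury and 0.254 CPM without. The 20 genes matched as macrophage markers summed to 193 to 292 CPM in injured against 58.8 to 85.4 CPM in non-injured mutants, and to 128 to 281 CPM in injured against 58.4 to 188 CPM in non-injured wild type fish. Endothelial markers summed to 203 to 267 CPM in injured against 330.3 to 384 CPM in non-injured mutants, and to 199 to 266 CPM in injured against 295 to 358 CPM in non-injured wild type fish. The summed epidermal markers overlapped between injured and non-injured fish of both genotypes, and so did the summed genes that define muscle. Some single muscle genes were apart in mutants. There ckma (13490 to 16074 CPM against 22311 to 42422 CPM) and ckmb were lower in injured fish. Higher there were pvalb2 (11518 to 14498 CPM against 3234 to 8616 CPM) and tnnt3 ENSDARG00000030270, and the rest overlapped. In wild type fish tnnt3 ENSDARG00000030270 alone was apart, and was higher with injury. In bulk muscle, fewer cells of a type and less RNA per cell cannot be told apart, and the part of these cell types in the falls was not tested.

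Adipocyte markers bear on fabp4a and ADIPOQ, since 5 of their 10 genes are members. They summed to 112 to 145 CPM in injured against 133 to 214 CPM in non-injured mutants, and to 115 to 173 CPM in injured against 162 to 430.2 CPM in non-injured wild type fish, where fabp4a alone had 397 CPM in the highest library. In every group fabp4a made up most of the sum, with group means from 103 CPM in injured mutants to 207 CPM in non-injured wild type fish. Of the other listed genes, plin1 and fabp4b had 1 and 3 counts over all libraries. Both ADIPOQ IDs and agpat2 were detected in every group, and pparg and cidec at lower levels. The leptin genes lepa and lepb were detected almost only in injured fish. The hepatocyte type fabp10a had 38 counts in all.

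**Figure D4:**
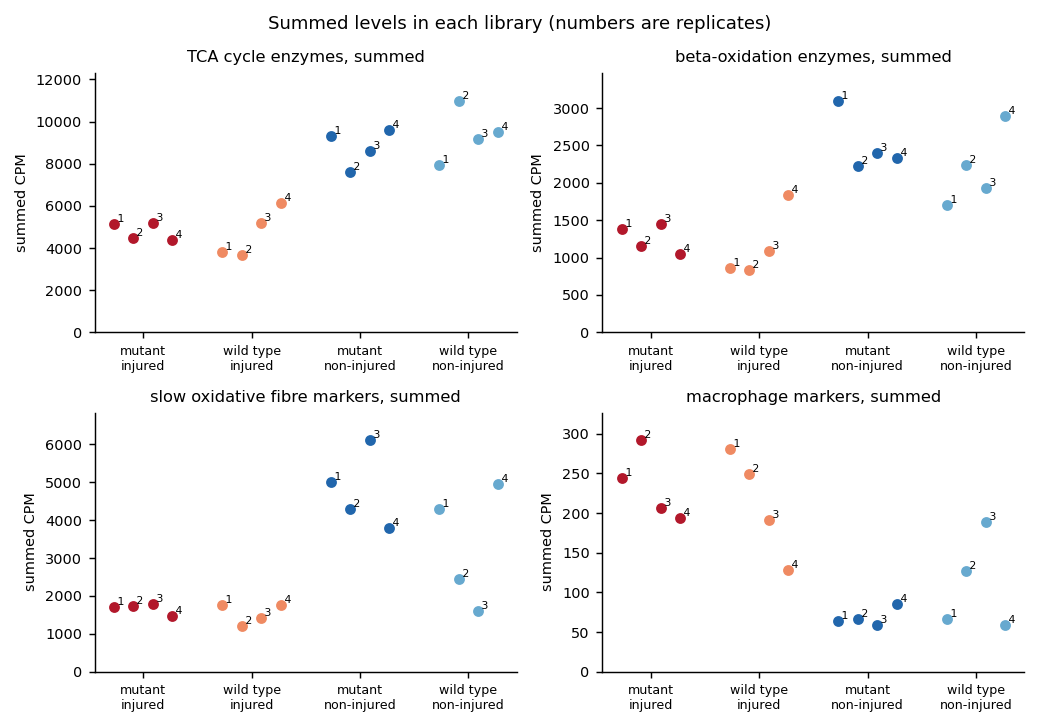
CPM summed over the TCA cycle enzymes, the beta-oxidation enzymes, the slow oxidative fibre markers and the macrophage markers in each library, with injured groups to the left of non-injured groups and replicates numbered. The upper sums and the slow fibre sum are lower in injured groups and the macrophage sum is higher, with overlap in wild type fish for all but the TCA sum, and replicate 4 of injured wild type has the highest TCA and beta-oxidation sums and the lowest macrophage sum of its group.

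Single fish stood apart across the members. Replicate 4 of injured wild type was the highest of its group for 61 of the 83 genes, against 30.5% of all genes, and its members lay 0.47 log2 units above the group at the median. That fish had 128 CPM of macrophage markers, where the other 3 of its group had 192 to 281 CPM. It also had the highest sums of its group for erythrocyte markers (856 CPM, others 322 to 423 CPM) and endothelial markers (266 CPM, others 199 to 218 CPM). Its slow fibre sum was 1763 CPM (others 1212 to 1748 CPM), and its epidermal and muscle sums lay within the range of the others. The part of these markers in its member levels was not tested. Replicate 2 of injured wild type was the lowest of its group for 43 of the 83, against 23.2% of all genes. Replicate 4 of non-injured wild type was the highest of its group for 46 of the 83, against 25.2% of all genes. Among mutants, replicate 1 was the highest for 41 in the injured group and for 42 in the non-injured group (28.6% and 28.5% of all genes), and replicate 4 of the injured group was the lowest for 41 (23.9% of all genes).

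Between genotypes few of these genes differed. In injured mutants against injured wild type fish, 1 of the 83 genes fell and none rose, which is 1.2% of them against 1.48% of all genes called (0.648% fell and 0.83% rose), and 14 had an unadjusted p below 0.05. In non-injured mutants against non-injured wild type fish, 2 rose and 2 fell, which is 4.82% of them against 2.83% of all genes called (1.38% rose and 1.45% fell), and 19 had an unadjusted p below 0.05. The median log2 fold change was 0.15 after injury and 0.03 without injury. The share after injury is near that of all genes, and of the 4 calls without injury 1 held without any single library, so neither is a result about the members as a group. The 14 and 19 genes are given without the share of all genes with an unadjusted p below 0.05, so no excess is read from them.

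**Figure D5:**
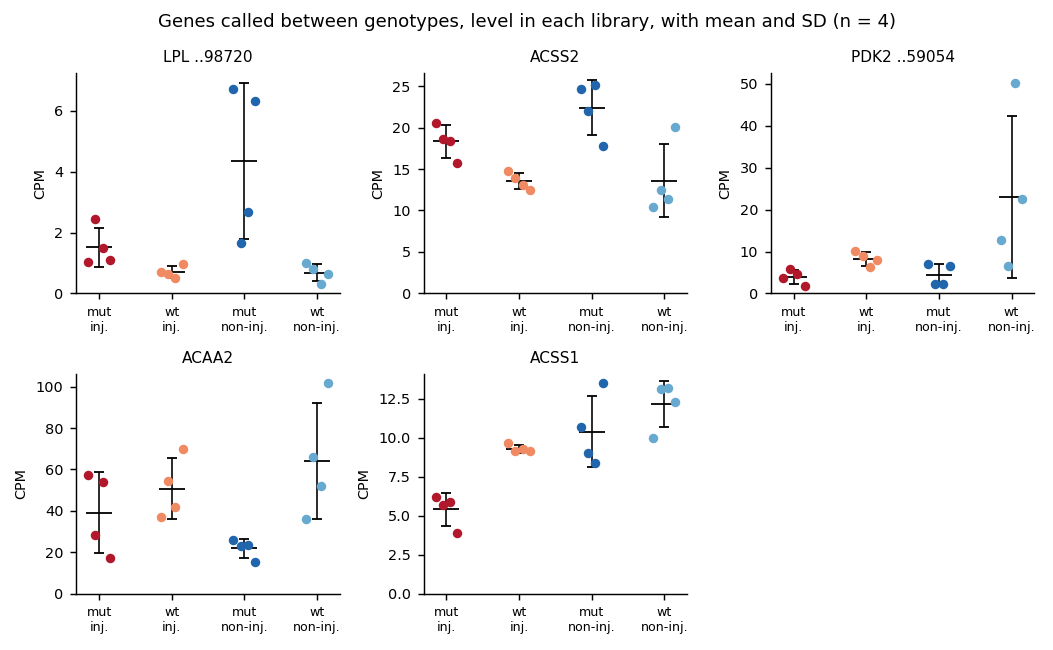
Level in CPM of the 5 genes called between genotypes in each library (points), with the mean and SD of each group of 4 fish, and mutant groups to the left of the wild type group with the same treatment. LPL ENSDARG00000098720 and ACSS2 are higher in non-injured mutants, PDK2 ENSDARG00000059054 and ACAA2 are lower in non-injured mutants, and ACSS1 is lower in injured mutants.

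The largest of these differences was in the second lipoprotein lipase ID. LPL ENSDARG00000098720 had 6.73, 1.65, 2.69 and 6.33 CPM in non-injured mutants against 1.01, 0.792, 0.310 and 0.635 CPM in non-injured wild type fish. All 4 mutants lay above all 4 wild type fish, at low levels in each. It was higher in mutants (2.66, SE 0.47, adjusted p = 0.0082), and the call held without any 1 library. It was lost in a fit of the non-injured libraries alone (adjusted p = 0.056) and without the 4 libraries highest in muscle genes (2.18, adjusted p = 0.14). After injury the mutants had 1.03, 2.44, 1.48 and 1.104 CPM and the wild type fish 0.688, 0.645, 0.520 and 0.972 CPM (1.09, adjusted p = 0.27). Within mutants this gene fell with injury (-1.52, adjusted p = 0.017), a call lost without replicate 1 or 4 of either mutant group (adjusted p between 0.052 and 0.063) and under library size alone (0.056). The abundant ID, LPL ENSDARG00000087697, had values of the other sign, -1.11 without injury and -1.12 after it (adjusted p = 0.11 without injury and 0.15 after it). DESeq2 called both (0.036 without injury and 0.047 after it), and without the muscle-rich libraries edgeR called the first (-1.02, adjusted p = 0.035).

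ACSS2, the cytosolic acetyl-CoA synthetase in mammals, was higher in non-injured mutants, with 24.6, 22.0, 25.1 and 17.8 CPM against 10.4, 12.5, 11.4 and 20.1 CPM in non-injured wild type fish. The groups overlapped through replicate 4 of each. The difference on the log2 scale was 0.72 (SE 0.18, adjusted p = 0.045), and the adjusted p was above 0.05 without any 1 of 13 of the 16 libraries, up to 0.13 without replicate 3 of the non-injured mutants. The 3 libraries whose removal kept the call were replicate 4 of non-injured wild type, of injured wild type and of non-injured mutants. It was lost as well with the replicate number as a block (0.083), under library size alone (0.061), without the low count filter (0.061), in the non-injured libraries alone (0.18) and without the 4 muscle-rich libraries (0.25). After injury ACSS2 had 20.6, 18.6, 18.4 and 15.7 CPM in mutants and 14.8, 13.9, 13.1 and 12.4 CPM in wild type fish, without overlap but also without a call (0.44, adjusted p = 0.26).

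PDK2 ENSDARG00000059054, a pyruvate dehydrogenase kinase, was lower in non-injured mutants, with 6.95, 2.19, 2.27 and 6.46 CPM against 12.7, 6.46, 50.2 and 22.6 CPM in non-injured wild type fish. The wild type fish differed widely among themselves, and the lowest of them lay within the mutant range. The log2 fold change was -2.37 (SE 0.57, adjusted p = 0.04). It was not called without any 1 of 11 libraries, with adjusted p values up to 0.12 without replicate 3 of the non-injured mutants and 0.11 without replicate 3 of non-injured wild type. The call held without replicate 1 or 2 of non-injured wild type, replicate 1 of injured wild type or replicate 2 or 4 of the injured mutants. It was lost with the block (0.094), under library size alone (0.058), without the filter (0.075), in the non-injured libraries alone (0.17) and without the muscle-rich libraries (0.089). After injury it had 3.68, 5.75, 4.54 and 1.76 CPM in mutants and 10.2, 8.88, 6.23 and 7.86 CPM in wild type fish (-1.07, adjusted p = 0.39).

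ACAA2 was lower in non-injured mutants, with 25.7, 22.8, 23.7 and 15.3 CPM against 36.1, 66.2, 51.9 and 102 CPM in non-injured wild type fish, and the groups did not overlap. On the log2 scale the difference was -1.55 (SE 0.37, adjusted p = 0.038). The call was lost without any 1 of 9 libraries (up to 0.094), namely the 4 non-injured mutants, replicates 2, 3 and 4 of non-injured wild type and replicates 2 and 3 of injured wild type. It was also lost with the block (0.083), under library size alone (0.093), without the filter (0.063), in the non-injured libraries alone (0.056) and without the muscle-rich libraries (0.22). After injury mutants had 57.4, 28.3, 53.7 and 17.3 CPM and wild type fish 36.9, 54.5, 41.9 and 69.8 CPM (-0.38, adjusted p = 0.7).

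ACSS1 was the gene called after injury. Injured mutants had 6.20, 5.71, 5.87 and 3.86 CPM against 9.67, 9.17, 9.26 and 9.13 CPM in injured wild type fish, with every mutant below every wild type fish. The summed erythrocyte markers were apart in the same libraries. They stood at 94.7 to 202 CPM in injured mutants against 322 to 856 CPM in injured wild type fish. Among them hbaa1 was apart (79.7 to 161 CPM against 304 to 776 CPM), whereas hbaa2, alas2 and slc4a1 ENSDARG00000012881 overlapped. The part of these markers in the result was not tested. The fitted log2 fold change of ACSS1 was -0.78 (SE 0.17, adjusted p = 0.028), and without injury it was -0.23 (adjusted p = 0.46). The call was lost without replicate 2, 3 or 4 of the injured mutants or replicate 1, 2 or 3 of injured wild type (adjusted p up to 0.079), with the replicate number as a block (0.071) and under library size alone (0.11).

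The 8 genes with an unadjusted interaction p below 0.05, named after their values were seen, had adjusted p values between 0.57 and 0.68. Their interaction, the log2 response in mutants minus that in wild type fish, was positive for PDK3 ENSDARG00000014527 (0.93), acss2l (1.75), ACAA1 (1.25) and ACAA2 (1.17). It was negative for PDK1 (-0.79), ACSS1 (-0.55), FABP7 ENSDARG00000007697 (-2.68) and LPL ENSDARG00000098720 (-1.57). A difference between the genotypes' injury responses was thus not detectable for any member at this depth and number of fish.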

How the data were processed

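Muscle RNA of 16 adult zebrafish, 1 fish per library and 4 per group, was sequenced from poly A selected, stranded libraries, per the labels' protocols. The authors deposited RSEM estimated counts per gene without normalization. fastp 0.23.4, STAR 2.7.0, STAR 2.7.10 and RSEM 1.3.3 are named in the submitters' processing notes, with no roles given, and neither the genome build nor the annotation or strand setting is given in the sources used here. How reads were divided between paralogs can move single members: 18 members share a symbol with another member and are given by ID. Of the deposited estimated counts, 94.29% were whole numbers, and all were rounded before testing. Symbols came from a table of gene IDs that matched 29201 of 32520 genes and left 3319 without a symbol. Depth was 17324482 to 25231102 counts per library, which limits genes of a few counts most.

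Genes were kept with edgeR 4.0.16 (filterByExpr, minimum count 10, minimum total 15), which left 16514. They were fitted in R 4.3.3 with TMM factors (0.678 to 1.27) and 1 mean per group, and tested 2-sided with the robust quasi-likelihood test (12 residual degrees of freedom, biological coefficient of variation 31.3%). P-values were adjusted by Benjamini-Hochberg over all genes tested, and a gene was called below 0.05. Counts of unadjusted p-values below 0.05 are given without the share of all genes, and no excess is read from them. The SE is the log2 fold change divided by the square root of F. CPM values use the same factors and are not per length, so they compare libraries and not genes. Single fish are the replicates. The code was tested on simulated data.

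Genes were named by rule: for each role and comparison the called members of smallest p, at most 4, every member called between genotypes, and the member with the highest mean CPM where none was called. PDK4, CPT1A, CPT1B, CPT2, PPARGC1A, the thiolase ACAA1, OGDH, ogdha, CS, ACO1, IDH1, the IDH3 and other SUCL subunits, FH ENSDARG00000075132, ACADVL, ACADS, HADHA, HADHB, hadhaa, ECI2, ACAD9, PLIN2, plin3 and the other pathway genes were named outside it, for their roles, after their values were seen. The members, roles, other pathway genes and marker lists were chosen with earlier results of these data known. Alternatives were DESeq2 1.42.0 and its type of size factors, library size alone, no low count filter, only the groups compared, the replicate number as a block, leaving out each library, and, chosen after seeing the data, leaving out the 4 libraries with over 300000 CPM of defining muscle genes. No sequence is shown, and 1 member is counted but not reported here.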

Additional observations from a re-analysis of the deposited data

Results flagged for a closer look

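In 12 of 168 groups of 4 fish, over 42 named genes, 1 fish stood so far from the other 3 that the gap passed Dixon's limit of 0.829 of the group's range. Chance alone flags about 1 in 20 groups, and the fish of 1 group are the same for every gene.

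Injured mutants held 2 of these. Replicate 4 had 3.26 CPM of acss2l, where the others had 5.33 to 5.64 CPM. Replicate 3 had 0.444 CPM of FABP7 ENSDARG00000007697, where the others had 0.140 to 0.184 CPM.

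Injured wild type fish held 4, of which 3 were replicate 4. That fish had 130.5 CPM of cpt1ab (others 47.6 to 54.7 CPM), 120.2 CPM of ACADL (others 56.1 to 66.5 CPM) and 100.3 CPM of HADH (others 49.5 to 55.6 CPM). Replicate 1 had 12.6 CPM of ACSL4 ENSDARG00000010752, where the others had 6.09 to 6.80 CPM.

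Non-injured wild type fish held the other 6. Replicate 4 was high in DLAT at 433 CPM (others 246 to 262 CPM), in cpt1ab at 138 CPM (others 70.6 to 78.7 CPM) and in ETFDH at 139 CPM (others 79.4 to 86.2 CPM). Replicate 2 was high in ETF1 at 54.8 CPM (others 47.2 to 48.3 CPM) and in LPL ENSDARG00000087697 at 249.7 CPM (others 97.6 to 114 CPM). Replicate 3 was high in fabp4a at 397 CPM (others 126 to 157 CPM).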

How the results depend on the processing

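In mutants, 40 of the 83 genes were called after injury, and 24 under library size alone; the other alternatives gave 36 to 51, and leaving out 1 library gave 31 to 44. In wild type fish 38 were called (23.8% of all genes), against 21 under library size alone (25.5%) and 25 in a fit of the groups compared (16.3%). Leaving out 1 library gave 23 to 53 there. The lowest counts were without replicate 2 of injured wild type (23, with 15.5% of all genes called), replicate 4 of non-injured wild type (24, with 18.6%) and replicate 1 of injured wild type (25, with 15.8%). The share of all genes is not given for the fit with 53, nor for the mutant counts of 36 to 51 and 31 to 44. No excess is read from these. Library size alone ended 17 of the 40 calls in mutants and 20 of the 38 in wild type fish, and 28 of the 40 and 22 of the 38 held without any 1 library. Between genotypes after injury, 1 gene was called, against 0 under library size alone or with the replicate number as a block, 2 with DESeq2 or in a fit of the groups compared, and 0 to 2 on leaving out 1 library. Without injury 4 were called, against 1 under library size alone, without the filter or with the block (LPL ENSDARG00000098720 in each), 1 without the libraries highest in muscle genes (LPL ENSDARG00000087697, none of the 4), 0 in a fit of the groups compared, and 1 to 3 on leaving out 1 library. The interaction called 0 under every alternative run.

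Of 89 values for named genes, 55 kept direction and call under library size alone, 27 lost the call, 2 gained one and 5 changed sign. DESeq2 kept 85 and added 4 calls. A fit of the wild type groups alone ended the wild type calls of DLAT (adjusted p = 0.062), ECHS1 (0.064), ETFB (0.06), ETFDH (0.07), fabp4a (0.12), ADIPOQ ENSDARG00000100086 (0.099) and PPARA (0.08). Leaving out the libraries highest in muscle genes ended, among others, those of PDK3 ENSDARG00000099791 (0.067), ACAD11 (0.053), ECI1 (0.19) and ETFA (0.066) in wild type fish and of FABP3 (0.064) and ETFDH (0.054) in mutants. None of the values that changed sign was called in the full data. PDK2 ENSDARG00000059054 after injury in mutants was at 0.17 under library size alone, 0.05 without the muscle-rich libraries, and between -0.42 and 0.13 on leaving out 1 library. In wild type fish ACSS2 was at 0.34 under library size alone, 0.026 in the groups compared, and between -0.12 and 0.25 on leaving out 1 library. FABP7 ENSDARG00000007697 there was at 0.28 under library size alone, 0.35 without the muscle-rich libraries, and between -0.48 and 0.34 on leaving out 1 library. LPL ENSDARG00000098720 there was at -0.0672 without the muscle-rich libraries and between -0.17 and 0.29 on leaving out 1 library. ACAA2 in wild type fish (0.014) and cpt1ab in mutants (0.050) changed sign under library size alone, and acss2l in mutants was between -0.69 and 0.066 on leaving out 1 library. The cause was not tested.

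Fish share only a replicate number. Same-numbered fish had correlated deviations of -0.194 to 0.0619 in the mutant injury comparison and 0.0532 to 0.344 in the wild type one, where 3 of 4 fish correlated best with their own number (1 of 4 in mutants). With the number as a block, 39 genes were called in mutants and 38 in wild type fish after injury, 0 between genotypes after injury and 1 without injury. Low counts limit FABP7, LPL ENSDARG00000098720 and the 14 untested members most.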
